A study of Mus musculus with 8 samples.

Results

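A set of 9 genes of pyrimidine and deoxynucleotide synthesis was followed in AML12 cells after silencing of Casp8, which encodes caspase-8, a protease activated at death receptors. They were chosen by symbol, with earlier results of these data known. Cad, Dhodh and Umps were taken for de novo pyrimidine synthesis, and Rrm1 and Rrm2 for ribonucleotide reductase. Tyms and Tk1 were taken for thymidylate supply, and Dut and Dctpp1 for clean-up of the nucleotide pool. All 9 symbols were found among the 34945 named genes of the table, and all 9 passed the filter on low values. AML12 is an established line of hepatocytes isolated from mice that carry a human TGF-alpha transgene, so it is a growing line and not resting liver. The siCasp8 group was 4 cultures given Casp8 siRNAs and the Scr group was 4 cultures given a scrambled control siRNA, each at 40 nM with a lipid transfection reagent. RNA was taken after 48 hours from both groups, which share the line, the medium with serum and the transfection itself. The labels give the genotype of the siCasp8 cultures as a Casp8 knockdown and that of the Scr cultures as WT. The series' design text calls the cultures biological replicates.

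Cells make pyrimidines by building orotate from small precursors and joining it to a ribose phosphate to give UMP, from which UTP and CTP follow. Ribonucleotide reductase removes an oxygen from ribonucleotides to give the deoxy forms, and thymidylate synthase makes dTMP from dUMP with a folate cofactor. Most liver cells in the adult seldom divide and need few deoxynucleotides, whereas dividing cells raise several of these enzymes before and during DNA replication.

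In siCasp8 cultures 8 of the 9 genes fell, and the remaining one, Dhodh, was not called. The falls were not even: Rrm2 and Tk1 were left at 53.6% and 56.8% of the Scr mean, while Umps and Dctpp1 were left at 87.3% and 84.6%. A gene was called when the adjusted p of limma's moderated test on log2(value + 1), taken over all 14154 tested genes, was under 0.05. By that rule 8 of 9 were lower and 0 were higher, where 20.8% of all tested genes were called lower, 19.4% higher and 40.2% in either direction. The median log2 fold change (siCasp8 minus Scr) was -0.45 over the 9 genes and 0.00 over all tested genes. The siCasp8 and Scr values did not overlap for 8 of the 9, always with siCasp8 lower; 37.5% of all tested genes were separated in this way, 19.5% with siCasp8 lower. Calls over all genes were 2739 higher and 2950 lower, and became 4471 higher and 1665 lower with upper quartile rescaling of the libraries, under which the median over all genes shifted by 0.10. On that scale 6 of the 9 genes were called lower. In bulk RNA, fewer cells in a state that uses these genes and less of their RNA per cell cannot be told apart.

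**Figure D1:**
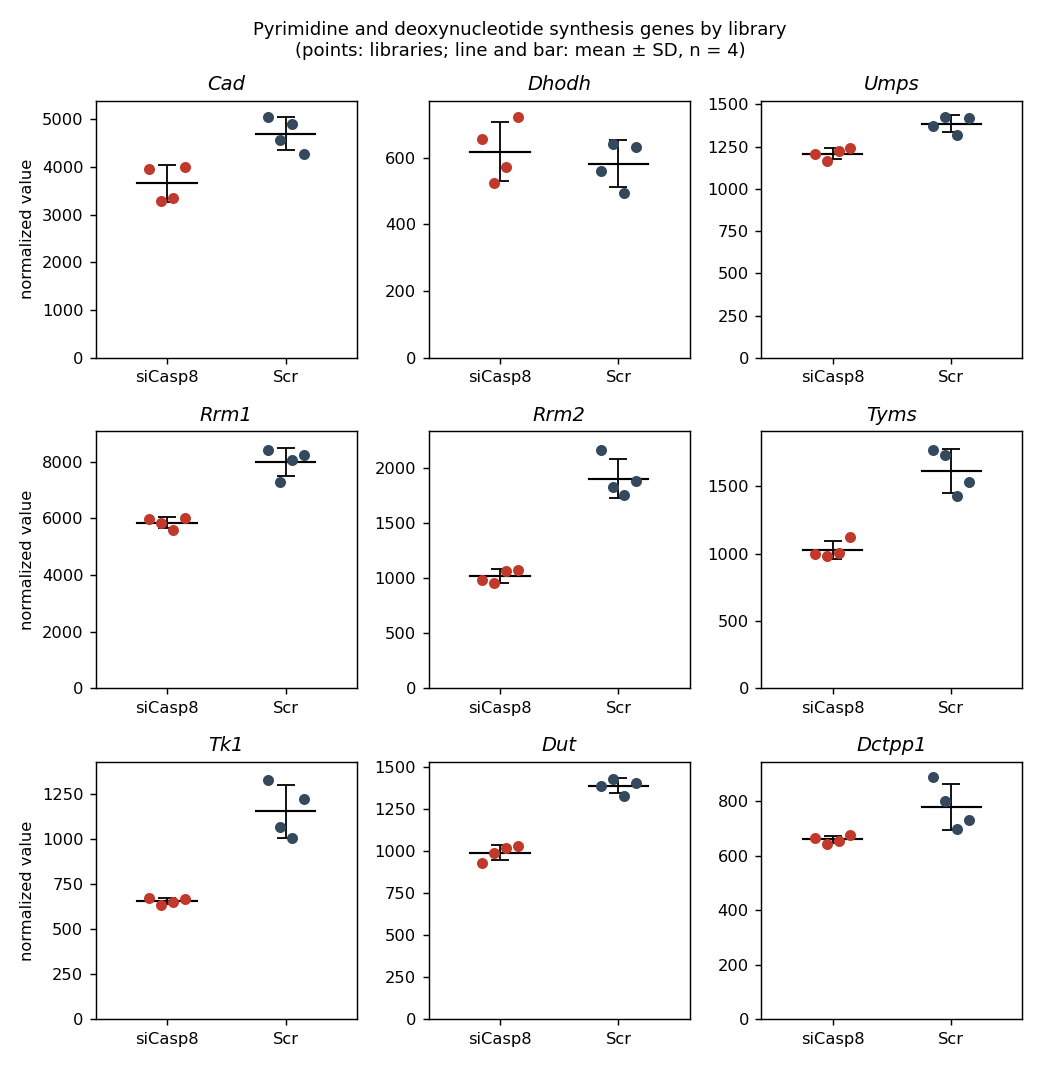
Normalized value of each of the 9 genes in each library, with siCasp8 libraries on the left and Scr libraries on the right of each panel (points, with mean and SD of 4 libraries; every axis starts at 0). The groups are apart for every gene but Dhodh, and the gap is widest in proportion for Rrm2 and Tk1.

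The silenced gene itself checks the labels. Casp8 ranged from 1374 to 1627 in siCasp8 libraries and from 3825 to 4134 in Scr libraries, so that 37.3% of the Scr mean was left (log2 fold change -1.43, SE 0.0525, limma adjusted p = 5.94e-09). Estimated depth was 50.5 to 57.1 M reads in siCasp8 libraries and 30.7 to 51.8 M reads in Scr libraries, so depth moved with the group. With estimated depth as a covariate, 5 of the 9 genes stayed called lower and Cad, Umps and Dctpp1 did not. Over all tested genes that fit took the calls from 5689 to 2615, and the lower calls from 2950 to 1409. Of 12 hepatocyte markers, 9 were tested, with 4 higher, 1 lower and 4 not called. The summed value of the 12 was 46321 to 49743 in siCasp8 and 39951 to 43759 in Scr libraries. Apob held the largest part of this sum and was the 1 called lower, with means of 21951 in siCasp8 and 26046 in Scr. Alb, the albumin gene, had 3380 to 3948 in siCasp8 and only 70.5 to 94.4 in Scr libraries, and the urea cycle gene Cps1 stayed at or under 2.38 in every library. The lists of other cell types were summed likewise. The 6 cholangiocyte markers held 118267 to 125969 in siCasp8 and 102415 to 111592 in Scr libraries. Most of this was Spp1, with means of 104055 in siCasp8 and 89795 in Scr. Of the 5 tested, Spp1 and Sox9 were higher, Krt19 and Krt7 were lower, and Epcam was at 0 in 7 of 8 libraries. Macrophage markers held 2041 to 2202 in siCasp8 and 2683 to 2890 in Scr libraries, mostly from Cd14 (means 1675 in siCasp8 and 2149 in Scr). Of the 3 tested, Cd14 and Csf1r were lower and Cd68 was not called, while Adgre1, Clec4f and Marco were at 0 throughout. Stellate cell markers held 96.1 to 172 in siCasp8 and 116 to 171 in Scr libraries, and the 2 tested went opposite ways. Des was higher, with means of 45.3 in siCasp8 and 12.1 in Scr, and Col1a1 was lower, with 77.9 in siCasp8 and 117 in Scr. Endothelial markers held 178 to 301 in siCasp8 and 186 to 536 in Scr libraries, with Cdh5 and Lyve1 at 0. Pecam1, the 1 endothelial marker tested, was not called. Depth was examined only as that covariate, and depth and group cannot be fully told apart in 8 libraries. The part of these markers in the results was not tested.

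Of the 3 de novo genes, Cad and Umps fell and Dhodh was not called. Cad (chromosome 5, 31054780 to 31078479, plus strand; all positions are for GRCm38) encodes the large protein whose domains carry out the opening reactions, from carbamoyl phosphate to dihydroorotate. It had 3965, 3289, 3353 and 4005 in siCasp8 replicates 1 to 4, against 5041, 4565, 4901 and 4279 in Scr replicates 1 to 4. All 4 siCasp8 libraries were below all 4 Scr libraries, although siCasp8 replicate 4 came within a short distance of Scr replicate 4. The means were 3653 ± 385 in siCasp8 and 4696 ± 343 in Scr (SD, n = 4 each), a log2 fold change of -0.37 (SE 0.0721, limma adjusted p = 0.0015). With depth as a covariate it was -0.25 (adjusted p = 0.162).

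Dhodh (chromosome 8, 109591343 to 109608673, minus strand) encodes the mitochondrial enzyme that oxidises dihydroorotate to orotate, the one step of the route that feeds electrons to the respiratory chain. Its values were 655, 525, 571 and 722 in siCasp8 replicates 1 to 4, against 561, 641, 493 and 633 in Scr replicates 1 to 4. The groups overlapped, with the lowest library in Scr and the highest in siCasp8. The means were 618 ± 87.6 in siCasp8 and 582 ± 69.5 in Scr (SD, n = 4 each). The log2 fold change was 0.08 with a 95% interval of -0.15 to 0.32 (limma adjusted p = 0.578), which leaves room for a small change in either direction.

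Umps (chromosome 16, 33954782 to 33967038, minus strand) encodes the enzyme that joins orotate to ribose phosphate and decarboxylates the product to UMP. It had 1204, 1163, 1223 and 1243 in siCasp8 replicates 1 to 4, against 1373, 1426, 1317 and 1422 in Scr replicates 1 to 4. The groups did not overlap, but the fall was the smallest of the 8 that were called. The means were 1208 ± 34.1 in siCasp8 and 1384 ± 50.8 in Scr (SD, n = 4 each), a log2 fold change of -0.20 (SE 0.0468, limma adjusted p = 0.00521). The call was lost after upper quartile rescaling (-0.10, adjusted p = 0.165) and with depth as a covariate (-0.21, adjusted p = 0.0949).

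Ribonucleotide reductase is built from a large subunit that holds the active site, encoded by Rrm1, and a small subunit that holds the radical, encoded by Rrm2 in cycling cells. Upstream sequence is shown for these 2 subunit genes and for the thymidylate genes Tyms and Tk1, so that the subunits of the reductase and the routes to dTMP can be set side by side. Each stretch is the 100 bases before the outermost annotated start, in the direction of the gene, taken from RefSeq promoter entries (GRCm38.p6). Capitals mark the letters of any searched motif, read on either strand.
Rrm2: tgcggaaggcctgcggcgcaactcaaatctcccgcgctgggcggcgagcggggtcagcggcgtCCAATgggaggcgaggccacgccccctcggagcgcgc
Rrm1: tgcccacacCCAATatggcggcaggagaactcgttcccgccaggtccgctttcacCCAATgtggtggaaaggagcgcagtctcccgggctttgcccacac
Tyms: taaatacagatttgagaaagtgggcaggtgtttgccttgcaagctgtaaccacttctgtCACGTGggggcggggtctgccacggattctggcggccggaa
Tk1: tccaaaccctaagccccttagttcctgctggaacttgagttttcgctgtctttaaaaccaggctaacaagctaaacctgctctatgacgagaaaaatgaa
The stretches lie at chr12:24708141-24708240 on the plus strand for Rrm2, chr7:102441595-102441694 on the plus strand for Rrm1, chr5:30073646-30073745 on the minus strand for Tyms and chr11:117826093-117826192 on the minus strand for Tk1.

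Promoter entries were found for 8 of the 9 genes, each covering 250 bases before and 50 after a start, and were searched on both strands for words of regulators linked to growth. The CCAAT box was present in 3 of 8, in Rrm2, Rrm1 and Dctpp1, against 39.4% of the 10639 tested genes with an entry. The E-box CACGTG was present in 1 of 8, Tyms, against 9.78%, and the mitotic element TTTGAA in 1 of 8, Umps, against 12.7%. None of the E2F words TTTCCCGC, TTTCGCGC, TTTGCCGC and TTTGGCGC was in any of the 8 windows, against 3.97% of tested genes. Only these exact words were searched, so other forms of an E2F site were not counted. The E2F words were in 9 of 17 windows of the DNA replication markers, and TTTGAA was in 11 of 15 windows of the mitosis markers. These matches describe letters in one window per gene and bear on no factor.

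Rrm2 (chromosome 12, 24708241 to 24714146, plus strand) had the largest fall of the 9 genes. It had 977, 956, 1062 and 1077 in siCasp8 replicates 1 to 4, against 2158, 1823, 1747 and 1874 in Scr replicates 1 to 4. Every siCasp8 library was far below the lowest Scr library, and Scr replicate 1 stood highest. The means were 1018 ± 60.3 in siCasp8 and 1901 ± 179 in Scr (SD, n = 4 each), a log2 fold change of -0.90 (SE 0.0679, limma adjusted p = 8.08e-07). Only 1.71% of tested genes had a lower log2 fold change, and without Scr replicate 1 the value was -0.83.

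Rrm1 (chromosome 7, 102441695 to 102469771, plus strand) fell less. It had 5991, 5849, 5577 and 6009 in siCasp8 replicates 1 to 4, against 8408, 7279, 8046 and 8252 in Scr replicates 1 to 4. The groups did not overlap, and 73.2% of the Scr mean was left. The log2 fold change came to -0.45, with an SE of 0.0467 (limma adjusted p = 1.09e-05). Rrm2b, which encodes the alternative small subunit used outside S phase and induced by p53, had 1298, 1436, 1533 and 1562 in siCasp8 libraries, against 1877, 1739, 1913 and 1734 in Scr libraries. It fell too, by 0.32 on the log2 scale (limma adjusted p = 0.00137), and with depth as a covariate the value was also -0.32 but with a wider SE of 0.105 (adjusted p = 0.058), so the call was lost.

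A ratio of 2 genes within a library does not depend on how libraries are scaled, so 8 such ratios were compared between groups by exact permutation (two-sided, 70 arrangements), for which 0.0286 is the smallest p. Of these 8, 7 differed after adjustment over the 8 ratios (exact adjusted p = 0.0327 for each). The ratios were chosen with earlier results of these data known, and no share over ratios of other genes was taken. Among all tested genes, 37.5% had single-gene values that did not overlap between the groups. The log2 ratio of Rrm2 to Rrm1 was -2.52 ± 0.109 in siCasp8 and -2.07 ± 0.114 in Scr (SD, n = 4 each), so the small subunit fell more than the large one, by 0.45. The log2 ratio of Rrm2 to Rrm2b was -0.52 ± 0.0751 in siCasp8 and 0.06 ± 0.14 in Scr libraries, and every siCasp8 library was below every Scr library. The shift was therefore away from the S-phase subunit, by 0.58, with both subunits lower. Lengths of transcripts differ between genes, so the shift of a ratio between groups can be read but not its sign within a library.

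**Figure D2:**
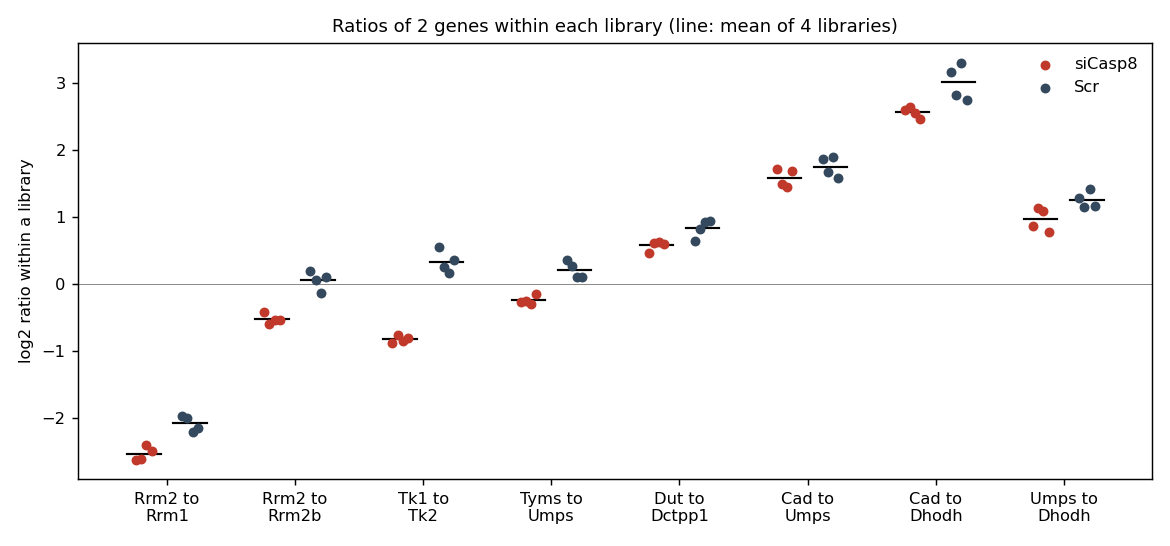
Log2 ratio of 2 genes within each library for the 8 ratios tested, siCasp8 libraries on the left and Scr libraries on the right of each pair (points; the line is the mean of 4 libraries). The widest gap is in Tk1 to Tk2, and the ratio of Cad to Umps is the one whose groups overlap. The groups nearly touch in Dut to Dctpp1 and in Umps to Dhodh.

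Thymidylate reaches DNA by synthesis from dUMP or by salvage of thymidine. Tyms (chromosome 5, 30058202 to 30073617, minus strand), the gene of thymidylate synthase, had 998, 981, 1001 and 1123 in siCasp8 replicates 1 to 4, against 1766, 1729, 1425 and 1527 in Scr replicates 1 to 4. The groups did not overlap, and siCasp8 replicate 4 stood above the other siCasp8 libraries. The means were 1026 ± 65.6 in siCasp8 and 1612 ± 163 in Scr (SD, n = 4 each), a log2 fold change of -0.65 (SE 0.0729, limma adjusted p = 2.03e-05). The longest annotated Tyms transcript shares a stretch of up to 361 bases, at 95% identity or more, with transcripts of 18 other genes, so part of its reads could be split among them.

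Tk1 (chromosome 11, 117815526 to 117826092, minus strand), the gene of the cytosolic thymidine kinase, whose level rises in S phase, had 671, 634, 649 and 669 in siCasp8 replicates 1 to 4, against 1326, 1066, 1005 and 1220 in Scr replicates 1 to 4. The siCasp8 libraries lay close together and the Scr libraries were spread more widely, with no overlap. The means were 656 ± 17.8 in siCasp8 and 1154 ± 146 in Scr (SD, n = 4 each), a log2 fold change of -0.81 (SE 0.0801, limma adjusted p = 7.18e-06). On the opposite strand Tk1 overlaps Afmid, which had 827 ± 20.7 in siCasp8 and 735 ± 38.2 in Scr (SD, n = 4 each), and whether counting used strand is not stated.

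Tk2, the gene of the mitochondrial thymidine kinase, went the other way. It had 1228, 1070, 1168 and 1167 in siCasp8 libraries, against 897, 893, 894 and 947 in Scr libraries, with no overlap. It rose by 0.35 (SE 0.0544, limma adjusted p = 0.000262). The log2 ratio of Tk1 to Tk2 was -0.82 ± 0.051 in siCasp8 and 0.34 ± 0.17 in Scr (SD, n = 4 each), a difference of -1.16 (exact adjusted p = 0.0327). The ratio of Tyms to Umps, which sets thymidylate synthesis beside the last step to UMP, also fell, by 0.45 (exact adjusted p = 0.0327).

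The 2 pool clean-up genes fell to different degrees. Dut (chromosome 2, 125247190 to 125258608, plus strand) encodes dUTPase, which removes dUTP and supplies dUMP for thymidylate synthesis. It had 924, 987, 1015 and 1029 in siCasp8 replicates 1 to 4, against 1386, 1429, 1326 and 1404 in Scr replicates 1 to 4. The groups were well apart, with means of 989 ± 46.6 in siCasp8 and 1386 ± 43.8 in Scr (SD, n = 4 each). This gave a log2 fold change of -0.49 (SE 0.0509, limma adjusted p = 1.1e-05).

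Dctpp1 (chromosome 7, 127256959 to 127260709, minus strand) encodes a pyrophosphatase that hydrolyses dCTP and modified forms of it. It had 666, 644, 653 and 675 in siCasp8 replicates 1 to 4, against 888, 802, 698 and 731 in Scr replicates 1 to 4. The groups did not overlap, but siCasp8 replicate 4 and Scr replicate 3 were close. This gave a log2 fold change of -0.23 (SE 0.0739, limma adjusted p = 0.0234). This was the least secure call of the 8: it was lost after upper quartile rescaling (adjusted p = 0.145), with depth as a covariate (-0.09, adjusted p = 0.636), and without siCasp8 replicate 2 (0.0606), siCasp8 replicate 3 (0.0509), Scr replicate 1 (0.0613) or Scr replicate 2 (0.0522). The log2 ratio of Dut to Dctpp1 was 0.58 ± 0.075 in siCasp8 and 0.84 ± 0.137 in Scr (SD, n = 4 each, exact adjusted p = 0.0327). Its groups nearly touched, at 0.636 in siCasp8 replicate 3 and 0.642 in Scr replicate 1.

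Among the 3 de novo genes, the ratios of Cad and of Umps to Dhodh were lower in siCasp8 libraries, by 0.45 and 0.28 (exact adjusted p = 0.0327 for each). For Umps to Dhodh the groups nearly touched, at 1.147 in siCasp8 replicate 2 and 1.152 in Scr replicate 2. The log2 ratio of Cad to Umps was 1.59 ± 0.133 in siCasp8 and 1.76 ± 0.15 in Scr (SD, n = 4 each), with overlap between the groups (exact adjusted p = 0.171). Without siCasp8 replicate 4, which left 35 arrangements, none of the 8 ratios passed after adjustment (lowest exact adjusted p = 0.0571), with every difference still negative. The ratios at 0.0571 were Rrm2 to Rrm1, Rrm2 to Rrm2b, Tk1 to Tk2 and Tyms to Umps. Their differences were -0.46, -0.57, -1.16 and -0.48, each at the smallest exact p that 35 arrangements allow. Adjustment over 8 ratios lifts that smallest p past the threshold unless more ratios share it. The ratios of Dut to Dctpp1 and of Cad to Dhodh also missed the threshold without siCasp8 replicate 1, 2 or 3 (exact adjusted p = 0.0653 each time). The ratio of Umps to Dhodh missed it without any 1 of the Scr replicates (exact adjusted p = 0.0653 to 0.163).

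Within the groups, the genes shared the libraries that stood high or low. Scr replicate 1 was the highest Scr library for 6 of the 9 genes and Scr replicate 3 the lowest for 7. Among siCasp8 libraries, replicate 4 was highest for 8 and replicate 2 lowest for 7. Some ranks were close, as for Rrm1 at 6009 in siCasp8 replicate 4 and 5991 in siCasp8 replicate 1. The same counts were not taken over all tested genes. Leaving out any one library kept all 8 falls in direction, and 7 or 8 of the 9 genes were called. Over all tested genes these fits called 4799 to 5743, with 2537 to 2978 of them lower.

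Other genes of the pathway were taken as 55 genes in 7 role groups, of which 50 were tested. Of these 11 were higher, 11 lower and 28 not called, with a median log2 fold change of 0.06. In percent of tested genes the background was 19.4% higher and 20.8% lower, so the shares of these genes were near it. With depth as a covariate 3 were higher and 6 lower, after upper quartile rescaling 18 were higher, and without any 1 of siCasp8 replicates 1, 2 and 3 or Scr replicates 1 and 2 there were 7 higher.

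**Figure D3:**
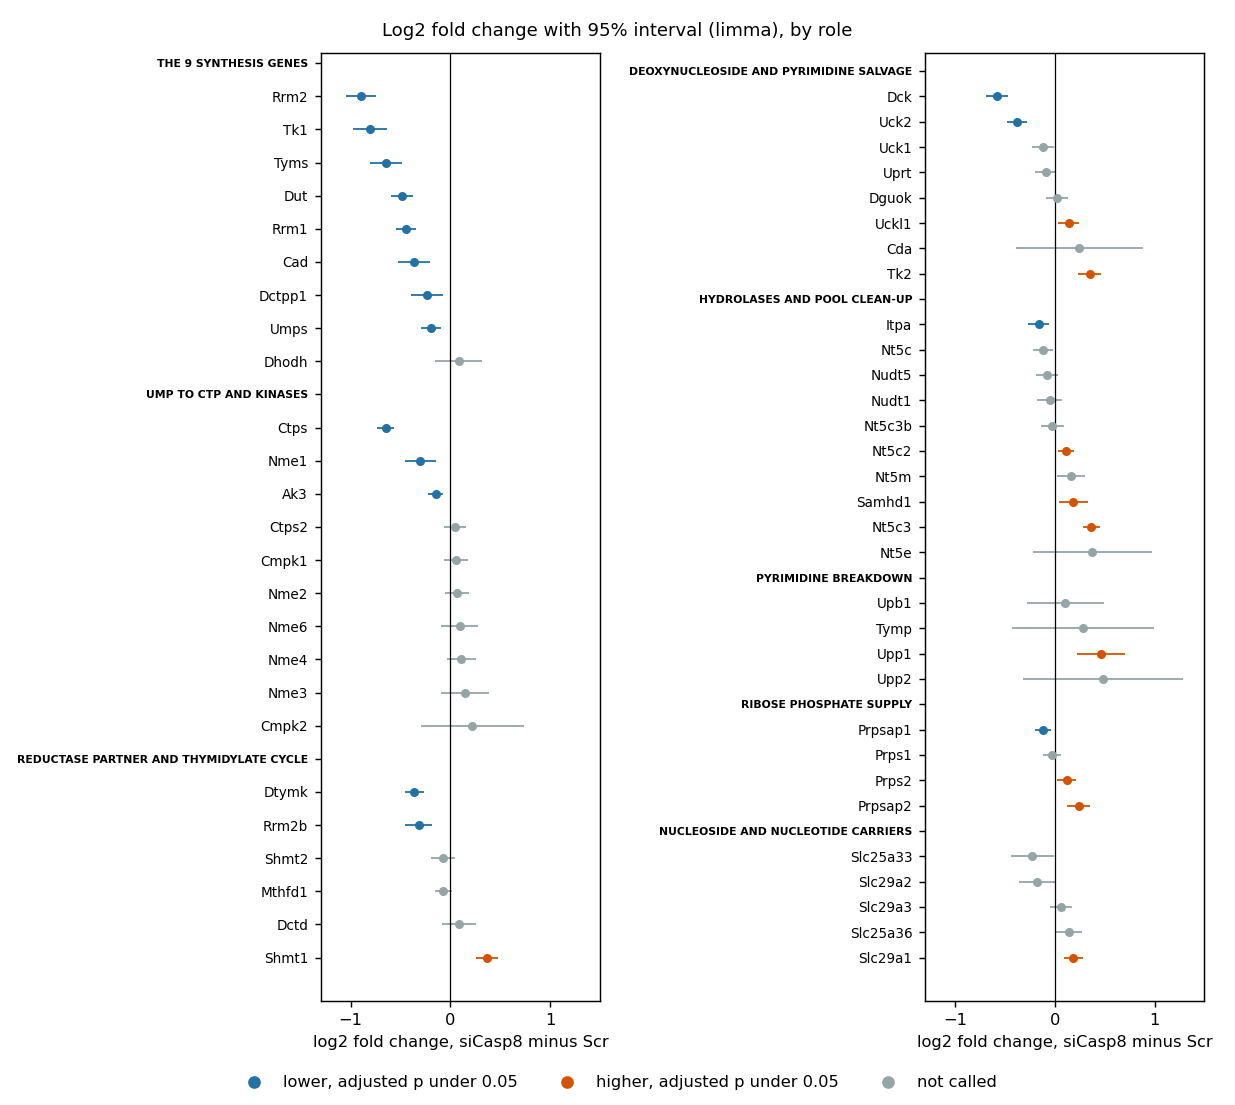
Log2 fold change (siCasp8 minus Scr, points) with its 95% interval (bars) for the 9 genes and for the other tested pathway genes reported here, grouped by role and ordered within each group; colours give the call. The 9 genes hold 8 falls and no rise, falls and rises both occur among the other genes, and Ctps and Dck are the lowest plotted outside the 9.

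In the reductase partner and thymidylate cycle group, 3 of 7 were lower and 1 higher. Dtymk, the gene of the kinase that acts on dTMP, fell by 0.36 to a mean of 1950 ± 56.4 in siCasp8, against 2506 ± 101 in Scr (SD, n = 4 each). Shmt1, which encodes the cytosolic serine hydroxymethyltransferase of the folate cycle, rose by 0.37 (limma adjusted p = 0.000107), with 2796 to 3010 in siCasp8 and 2142 to 2489 in Scr libraries. Dctd, the gene of dCMP deaminase, was not called (0.09, 95% interval -0.09 to 0.26).

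Of the 10 genes from UMP to CTP and the nucleotide kinases, 3 were lower and none higher. Ctps, which encodes the main CTP synthase, had 2534, 2429, 2504 and 2555 in siCasp8 libraries, against 4008, 3735, 3898 and 4068 in Scr libraries, and fell by 0.65 (limma adjusted p = 1.42e-07). Its paralog Ctps2 was 2276 ± 107 in siCasp8 and 2204 ± 118 in Scr (SD, n = 4 each) and was not called (0.05, 95% interval -0.06 to 0.15). The nucleoside diphosphate kinase gene Nme1 fell by 0.30, a call lost with depth as a covariate (-0.19, adjusted p = 0.3), and Ak3, a mitochondrial adenylate kinase gene, fell by 0.15. Cmpk1, the gene of the UMP and CMP kinase, had a log2 fold change of 0.05 (limma adjusted p = 0.476). Cmpk2, the gene of its mitochondrial counterpart, overlapped widely between groups, with 83.0 to 146 in siCasp8 and 73.9 to 156 in Scr libraries (limma adjusted p = 0.497). Upper quartile rescaling brought Ctps2 and Cmpk1 past the threshold as higher.

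Salvage genes went both ways, with 2 of 8 lower and 2 higher. Dck, the gene of deoxycytidine kinase, had 1111, 1123, 1193 and 1093 in siCasp8 libraries, against 1808, 1645, 1609.7 and 1696 in Scr libraries, and fell by 0.58 (limma adjusted p = 2.71e-06). Uck2, a uridine and cytidine kinase gene, fell by 0.38 (limma adjusted p = 3.81e-05). Besides Tk2, the gene called higher was Uckl1, a relative of Uck2, by 0.14 and with overlapping groups.

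Among 11 hydrolases and clean-up genes 3 were higher and 2 lower. Nt5c3, which encodes a 5′-nucleotidase that acts on pyrimidine monophosphates, had 2772, 2846, 2828 and 2722 in siCasp8 libraries, against 2146, 2194, 2258 and 2067 in Scr libraries, and rose by 0.37 (limma adjusted p = 1.62e-05). Itpa, the gene of the enzyme that removes ITP, fell by 0.16. Samhd1, the gene of a hydrolase that degrades deoxynucleotide triphosphates, was 2266 ± 127 in siCasp8 and 1997 ± 187 in Scr (SD, n = 4 each), with overlapping groups (0.19, limma adjusted p = 0.0417). The nucleotidase gene Nt5c2 was higher by 0.11.

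Genes of breakdown, ribose phosphate supply and transport made up the remaining groups. Upp1, the gene of uridine phosphorylase, was the one called of 4 tested breakdown genes; it had 251, 241, 237 and 267 in siCasp8 libraries, against 203, 181, 148 and 195 in Scr libraries, and rose by 0.46 (limma adjusted p = 0.00489). Dpyd, which starts the breakdown of uracil and thymine, reached at most 2.64 in siCasp8 libraries, was listed at 0 in every Scr library and was not tested. Of 4 genes of ribose phosphate supply, Prpsap2 and Prps2 were higher, by 0.24 and 0.12, and Prpsap1 was lower, by 0.11. The nucleoside carrier gene Slc29a1 rose by 0.18 (limma adjusted p = 0.00533). Calls of Uckl1, Samhd1, Nt5c2, Prps2 and Prpsap1 were each lost in 7 to 10 of 18 alternative settings, and Upp1, Itpa, Prpsap2 and Slc29a1 were not called with depth as a covariate. In that fit Upp1 was at 0.43 (SE 0.184), Itpa at -0.20 (SE 0.0805), Prpsap2 at 0.20 (SE 0.0865) and Slc29a1 at 0.12 (SE 0.0709).

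Markers of DNA replication and of mitosis moved in the same direction as the 8 genes that fell. All 21 replication markers were lower, between -1.12 and -0.21 on the log2 scale (median -0.66), and their summed value was 33569 to 35443 in siCasp8 and 50048 to 54511 in Scr libraries. All 18 mitosis markers were lower, between -1.21 and -0.88 (median -1.10), and summed to 17665 to 19224 in siCasp8 and 37387 to 44909 in Scr libraries. Against the background of 20.8% of genes called lower, these lists are shown as values set beside the 9 genes, and their part in the falls was not tested. The helicase genes Mcm5 and Mcm4 fell by 1.04 and 0.87, the spindle gene Tpx2 fell by 1.15, and the topoisomerase gene Top2a fell by 1.11. Of the 9 genes, all but Umps and Dhodh lay within the range of the replication markers, and those lay above it. All but Rrm2 lay above the range of the 18 mitosis markers, and Rrm2 lay at the upper end of that range.

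**Figure D4:**
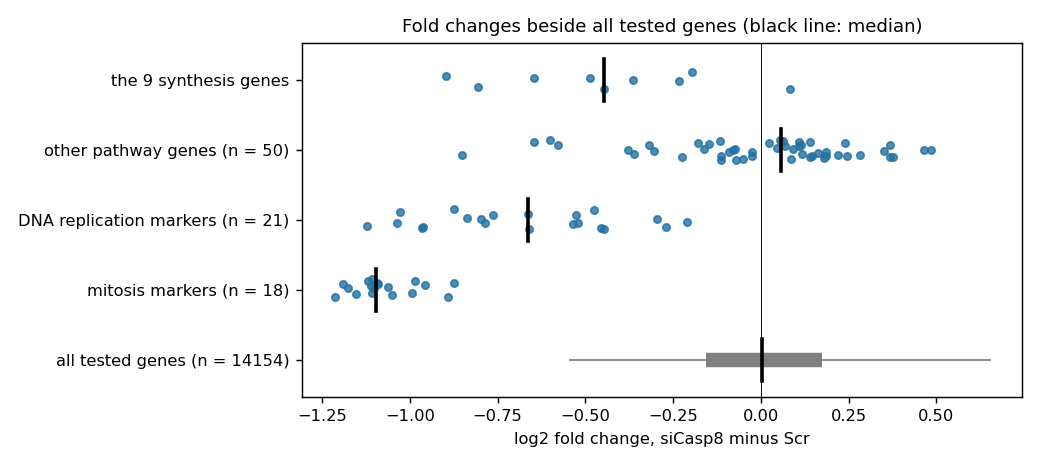
Log2 fold change (siCasp8 minus Scr) of each gene (points) in the 9 synthesis genes, the other pathway genes, the replication markers and the mitosis markers, with the median of each (black line); for all tested genes the thick bar spans the 25th to 75th and the thin line the 5th to 95th percentile. The 9 genes reach from near 0 to -0.90 and have a median of -0.45, between the other pathway genes at 0.06 and the replication markers at -0.66.

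The genes nearest in pattern were found by the root mean square difference between log2 values over the 8 libraries, each centred on its gene's mean, among 11310 genes with a mean of at least 50, leaving out predicted genes and pseudogenes. For Rrm2 they were Samd4, Mcm4 and Uhrf1, at 0.0385, 0.0414 and 0.0476. For Tyms they were Zyx, Fads2 and Tuba1a, at 0.0467 to 0.0541, and for Cad they were Prrg4, Polr2i and Tinf2, at 0.0625 to 0.0752. The libraries of both groups enter this measure, so a shared difference between groups counts toward likeness.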

How the data were processed

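Poly-A RNA of 8 AML12 cultures was sequenced with TruSeq chemistry, per the labels' protocols. The table deposited by the authors holds a normalized signal per gene symbol: per its name, kallisto estimates normalized with DESeq2. Tools named in the submitters' processing notes, with no role given, are kallisto 0.44.0, bcl2fastq 2.19, DESeq2 and sleuth; the annotation and gene summing are not stated. A line without a symbol (0.0481% to 0.0631% of each total) was left out. Totals were 44.1 to 45.6 M. Depth was estimated from the commonest low value, taken as 1 read; whole multiples of it (tolerance 0.1 read) made up 63.0% to 75.0% of values at or under 20.5 reads, so no count model was used.

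Genes with a mean of at least 10 were tested with limma 3.58.1 in R 4.3.3 (trend, two-sided, log2(value + 1), Benjamini-Hochberg adjustment over 14154 genes); fold changes on this scale understate low genes. No 2 libraries held identical values. Positions came from GENCODE for GRCm38. The limma p-values set a difference against the spread between these cultures, and the exact p-values against rearrangements of their labels. The 9 genes, the lists and the ratios were chosen with earlier results of these data known. Named were the 9 genes and Casp8, 14 pathway genes by symbol, and the 3 nearest patterns of Rrm2, Tyms and Cad. Up to 2 called genes of smallest adjusted p per role group, marker list and direction were named too. Ak3, Afmid, Alb, Cps1, the other cell type markers named and markers at 0 were added after their values were seen. Some pathway genes that this rule names count in the totals but are not reported here. Alternatives changed the pseudocount, filter, scaling, prior, pairing and depth term, or left out each library.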

Additional observations from a re-analysis of the deposited data

Results flagged for a closer look

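In 94 groups of 4 values (the named genes and the ratios, in each group), 8 held a library far from the other 3 by Dixon's test, where chance flags about 1 group in 20. Tyms in siCasp8 replicate 4 was 1123, above 981 to 1001 in the others. Tk2 in Scr replicate 4 was 947, above 893 to 897. Cmpk1 in Scr replicate 3 was 4681, above 4036 to 4127, and Cmpk2 in Scr replicate 4 was 156, above 73.9 to 84.7. Itpa in siCasp8 replicate 1 was 999, below 1073 to 1087. Prpsap1 in siCasp8 replicate 3 was 2669, below 2700 to 2702. Top2a was 3521 in siCasp8 replicate 2, below 3788 to 3834, and 9126 in Scr replicate 1, above 7625 to 7790.4.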

How the results depend on the processing

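Rrm1, Rrm2, Tyms, Tk1 and Dut were called lower under all 18 alternatives, with Rrm2 between -0.94 and -0.80 on the log2 scale, and Casp8 between -1.47 and -1.33. With estimated depth as a covariate 2615 genes were called (1206 higher, 1409 lower), 5 of the 9 genes (all 5 lower) and 9 other pathway genes (3 higher, 6 lower), and Cmpk2 turned to -0.51 (adjusted p = 0.254). Depth and group cannot be fully told apart in 8 libraries. After upper quartile rescaling 4471 genes were higher and 1665 lower, and 18 other pathway genes were higher; without a filter on low values 7 were. Leaving out 1 library gave 7 to 10 higher pathway genes and 0 to 6 ratios past the threshold. The 0 came without siCasp8 replicate 4, where too few ratios reached the smallest possible exact p for any to pass after adjustment. Over 38 named genes, 613 of 684 values kept direction and call, 68 lost the call, 2 gained it and 1 reversed.

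Same-numbered libraries were not taken as pairs, since their deviations correlated at 0.0442 to 0.169; all 8 libraries did correlate best with their own number, a hint from the data only. With the replicate block no named gene's call changed, and 0 of 8 ratios passed in an exact sign-flip test, whose smallest p is 0.125.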
